A study of Homo sapiens with 12 samples.

Results

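The 36 genes described here are interferon-stimulated genes, chosen by symbol from a table of RNA sequencing counts. Each of the 36 symbols occurred once among the 60649 genes of the table, and all 36 passed the filter on low counts that left 21114 genes for testing. The table held 12 libraries from 2 uterine leiomyosarcoma lines labelled as wild type, SK-UT-1B, grown from a primary tumor, and SK-LMS-1, grown from a metastasis. Per the study's methods the cells were serum-starved and then exposed for 72 h to the DMSO vehicle control or to drug at the concentration calculated to inhibit 30% of viability (IC30). The 4 SK-UT-1B libraries were 4-1 and 4-2 after DMSO, and 3-1 and 3-3 after MK-0752 given together with gemcitabine and docetaxel, called the combination here. Of the 8 SK-LMS-1 libraries, 4 were exposed to DMSO (2-1 and 2-3, or set 2, and 4-1 and 4-2, or set 4), 2 to MK-0752 alone (2-2 and 2-3), and 2 to the combination (4-1 and 4-2). MK-0752 inhibits gamma secretase, the protease that releases the active part of Notch receptors, gemcitabine stops DNA replication as a false nucleoside, and docetaxel stabilizes microtubules. The dose of MK-0752 was lower in the combination than alone. Each line received its own combination doses, and per the study's methods those of all 3 drugs were higher in SK-LMS-1.

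Interferons are secreted proteins that cells release when they sense viral or misplaced nucleic acids. Type I interferons bind the receptor pair IFNAR1 and IFNAR2, whose kinases JAK1 and TYK2 switch on a transcription factor complex, with STAT2 and IRF9 among its parts, that binds the interferon-stimulated response element (ISRE) of its target genes. The products of these targets sense viral RNA, block translation, degrade RNA, trap virions, and feed back on the pathway, and many tumor lines keep some of them on without added interferon. Each line stands for 1 tumor, and nothing in the labels says whether libraries of a group came from separate cultures, so p-values measure the spread between libraries only.

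Total counts were between 25250057 and 40709885 per library. The count of an expressed gene varied more between libraries than reads drawn at random would, with 17.6% to 34.5% of the genes that should have had 5 to 500 reads found at 0, against at most 0.0374% under random sampling. If this excess came from repeated reads of the same molecules, counts stood for fewer molecules, by an estimate of 11.0 to 27.7 reads per molecule. This cause was not tested. A gene at or under 3 counts in every library of a group was taken as not detectable at this depth, which corresponds to 0.0777 to 0.123 CPM (counts divided by the TMM-scaled library size). The libraries 3-1 and 3-3 of SK-UT-1B differed from each other more than the libraries of any other group, with a chi-square of 104 per degree of freedom against 16.3 to 56.6. Of the 36 genes 44.4% were higher in 3-1, against 43.6% of all tested genes. In SK-UT-1B the treatment also went with the first library number (4 after DMSO, 3 after the combination), and these cannot be told apart. Of the smooth muscle markers, MYH11 and MYOCD were at or under 3 counts after DMSO in both lines. DES was at 0 in SK-LMS-1 and at least 76.6-fold lower there after DMSO, while the summed level of 9 markers was 538 to 621 CPM in SK-LMS-1 and 85.0 to 124 CPM in SK-UT-1B. By the test used below, 6 of 8 tested markers were higher and 1, DES, was lower in SK-LMS-1 after DMSO, against 17% and 14.1% of all tested genes. The 7 leukocyte markers were low but higher in SK-LMS-1 on the whole, summing to 0.961 to 5.22 CPM there and 0 to 0.984 CPM in SK-UT-1B. The 3 endothelial markers summed to 2.46 to 9.40 CPM in SK-LMS-1 and 0 to 2.01 CPM in SK-UT-1B. The 4 epithelial markers also moved with the line, at 152 to 253 CPM in SK-LMS-1 and 0.292 to 1.14 CPM in SK-UT-1B. The higher sum came from the keratins KRT8 and KRT18, while EPCAM reached at most 1.04 CPM and CDH1 was at or under 3 counts in every library. The part of these markers in the line differences below was not tested.

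The promoters were searched for the element through which interferon acts. RefSeq (GRCh38.p14) gave a promoter entry, from 250 bases before to 50 after the start, for 29 of the 36 genes. The ISRE core, searched as GAAA and GAAA with any 2 bases between them (TTTC and TTTC on the other strand), occurred in 18 of these 29 windows (62.1%), against 996 of 27305 windows of the same length (3.65%). The shorter gamma-activated site TTCNNNGAA, which reads the same on both strands, occurred in 7 of the 29 (24.1%) and in 7.88% of all windows. The following stretches of 30 bases are shown for the genes that the results below turn on, on the strand of each gene. Capitals mark only the match to the ISRE core that starts nearest the transcription start. The windows of ISG15, OAS3, and IFI44L held 2 matches and that of HERC5 held 3, and the second match of ISG15 overlaps the marked one.
PARP14, chr3:122680800-122680829: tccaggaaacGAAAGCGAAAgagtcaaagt
DTX3L, chr3:122564322-122564351: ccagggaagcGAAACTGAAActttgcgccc
LGALS3BP, chr17:78979962-78979991: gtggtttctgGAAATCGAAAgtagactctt
IFI44L, chr1:78620365-78620394: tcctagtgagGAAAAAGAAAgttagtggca
SAMD9, chr7:93118096-93118125: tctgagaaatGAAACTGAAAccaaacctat
OAS3, chr12:112938452-112938481: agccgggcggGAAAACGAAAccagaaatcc
HERC5, chr4:88457035-88457064: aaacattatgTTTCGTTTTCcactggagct
ISG15, chr1:1013380-1013409: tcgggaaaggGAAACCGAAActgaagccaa
A match of these letters is not evidence of binding. The match occurred in 9 of 15 windows of genes that were higher in SK-LMS-1 after DMSO, in 1 of 2 of those that were lower, and in 8 of 12 of those that were not differentially expressed between the lines. The 11 genes that had an entry without a match in this window were SAMD9L, XAF1, HERC6, PARP9, OAS1, IRF1, CMPK2, IFI35, STAT2, IRF9, and RSAD2.

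The level of most of the 36 genes depended on the line. After DMSO, 22 of the 36 were differentially expressed when the lines were compared, that is, they passed an adjusted p of 0.05 over all tested genes with a log2FC of 1 or more in size. Of these, SK-LMS-1 had the higher level for 20 and the lower level for 2, while 31.1% of all tested genes passed in either direction, 17% higher and 14.1% lower. The median log2FC of the 36 genes was 2.41, against 0 for all tested genes. The libraries of the lines did not overlap for 22 genes that were higher and 4 that were lower in SK-LMS-1, and such separation occurred in 25.3% and 26.6% of all tested genes. Of the 36 genes, 6 were at or under 3 counts in both SK-UT-1B DMSO libraries and passed the filter through SK-LMS-1 or the treated libraries, so that 5 of the 20 higher calls (OASL, IFI44L, XAF1, SAMD9L, and TRIM22) rest on genes that could be tested only because SK-LMS-1 or treated libraries held reads. Without these 6 genes, a count added after the data were seen, 17 of 30 were differentially expressed, 15 higher and 2 lower in SK-LMS-1, with a median log2FC of 2.07. In these bulk libraries, fewer cells that express a gene and less RNA per cell cannot be told apart.

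**Figure D1:**
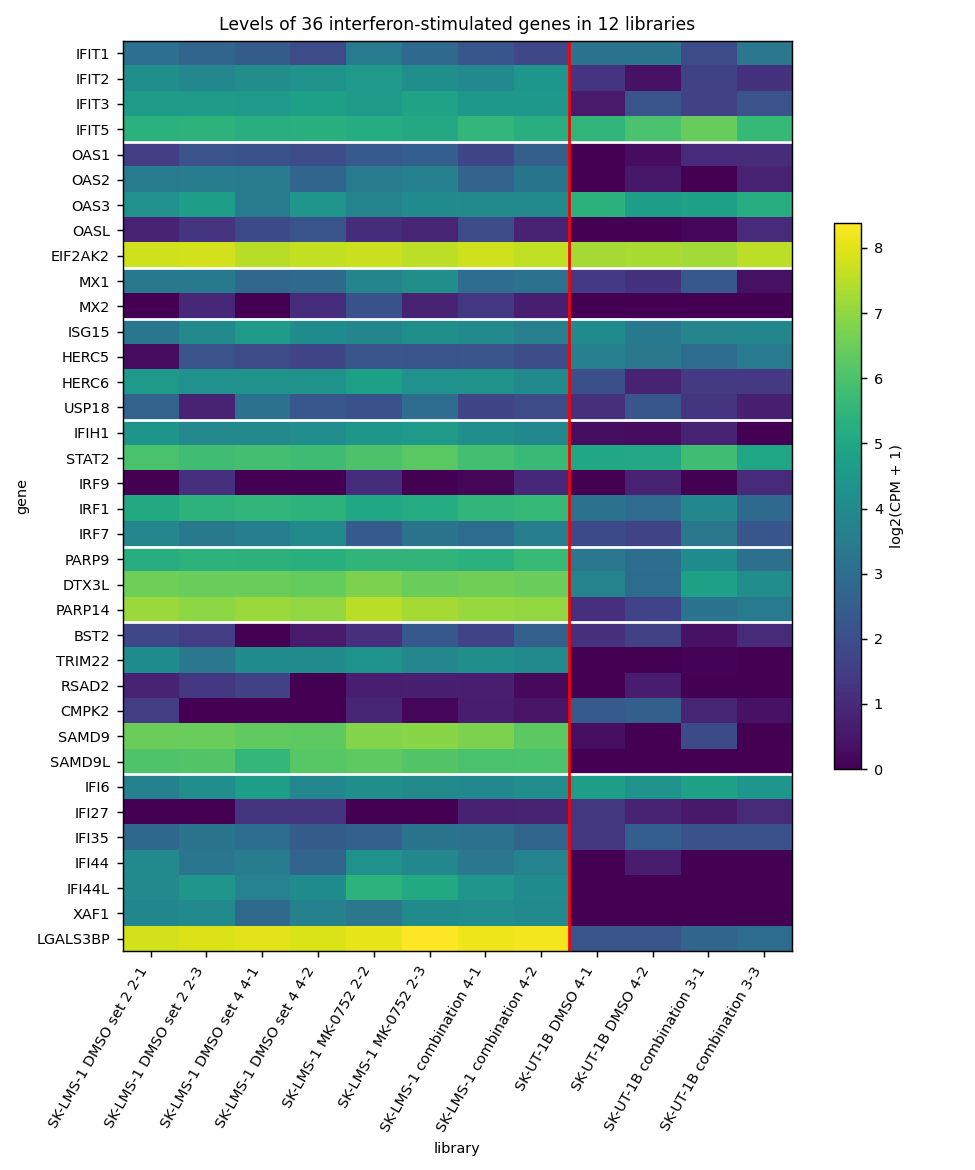
Level of each gene, as log2(CPM + 1), in the 12 libraries, with genes grouped by role between white lines and the lines separated by the red line (SK-LMS-1 left, SK-UT-1B right). SAMD9, SAMD9L, PARP14, DTX3L, and LGALS3BP are brighter in all SK-LMS-1 libraries than in any SK-UT-1B library, whereas EIF2AK2 is bright in both.

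In RPKM (CPM divided by the length of the canonical transcript in kilobases), which allows genes to be compared, LGALS3BP led in SK-LMS-1 after DMSO at 110 ± 6.24 RPKM (SD, n = 4). LGALS3BP encodes a secreted glycoprotein that binds galectins. ISG15 at 24.8 ± 9.52, IFI6 at 20.6 ± 7.20, and EIF2AK2 at 20.5 ± 2.00 RPKM came next in SK-LMS-1 and lay within their spread of each other. In SK-UT-1B the leading gene was IFI6, which encodes a small membrane protein that counters apoptosis, at 26.5 ± 5.06 RPKM (n = 2), followed by ISG15 at 19.7 ± 6.83 and EIF2AK2 at 15.6 ± 0.423 RPKM. Neither IFI6 nor ISG15 was differentially expressed between the lines (log2FC -0.38, adjusted p = 0.331, and 0.28, adjusted p = 0.559), and 23.1% of the exon length of IFI6 is shared with another gene on its strand. The log2FC of IFI6 was -0.63 without SK-LMS-1 library 4-1, -0.19 without SK-LMS-1 library 4-2, and -0.23 without SK-UT-1B library 4-1. LGALS3BP had 225, 247, 258, and 242 CPM in the SK-LMS-1 libraries and 3.57 and 3.50 CPM in SK-UT-1B, without overlap. Its log2FC was 6.10 ± 0.20 (standard error), or 68.7-fold, with an adjusted p of 3.13e-15.

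**Figure D2:**
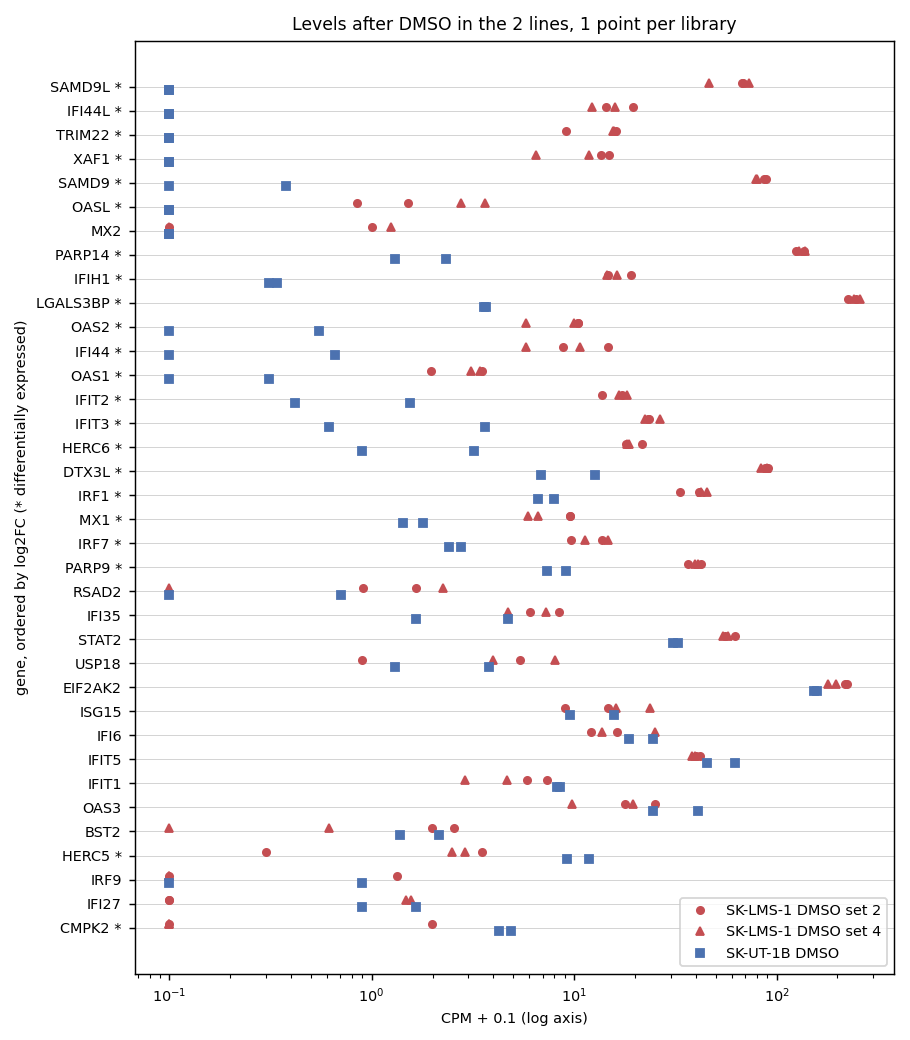
CPM + 0.1 on a log axis for each of the 36 genes after DMSO, 1 point per library, ordered by the log2FC between the lines, with an asterisk at the 22 differentially expressed genes. The points of the lines separate widely for most genes at the top and overlap for several genes further down. All SK-LMS-1 points lie at lower CPM than all SK-UT-1B points for IFIT5, IFIT1, HERC5, and CMPK2.

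The ISG15 system attaches the ubiquitin-like protein ISG15 to other proteins. HERC5, its main ligase in human cells, was lower in SK-LMS-1, and its neighbour HERC6 was higher, the pair lying at chr4:88378739-88506163. HERC5 had 0.201, 3.40, 2.80, and 2.38 CPM in SK-LMS-1 against 11.7 and 9.15 CPM in SK-UT-1B, without overlap. Its log2FC was -2.27 ± 0.71 with an adjusted p of 0.0143, and it did not pass with set 4 as the only SK-LMS-1 control (adjusted p = 0.0875) or without SK-UT-1B library 4-1 (adjusted p = 0.0794). Without SK-LMS-1 library 2-3 its log2FC was -3.84. HERC6 had 21.5, 18.0, 18.6, and 18.2 CPM in SK-LMS-1 and 3.12 and 0.796 CPM in SK-UT-1B, a log2FC of 3.30 ± 0.49 with an adjusted p of 1.37e-05. USP18, which removes ISG15 from proteins and dampens the receptor, was not differentially expressed (log2FC 0.79, adjusted p = 0.524).

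Of the antiviral IFIT family, IFIT2 and IFIT3 were higher in SK-LMS-1, and IFIT1 and IFIT5 did not pass. IFIT2 had 17.1, 13.7, 16.5, and 18.2 CPM in SK-LMS-1 and 1.45 and 0.318 CPM in SK-UT-1B (log2FC 4.23 ± 0.55, adjusted p = 3.14e-06), although 12.1% of its exon length overlaps another gene on its strand. IFIT3 had 23.2, 23.2, 22.2, and 26.5 CPM in SK-LMS-1 and 0.519 and 3.53 CPM in SK-UT-1B (log2FC 3.53 ± 0.58, adjusted p = 1.69e-04), and its log2FC was 5.51 without SK-UT-1B library 4-2. All 4 genes lie at chr10:89283694-89421605. IFIT1 had 7.28, 5.72, 4.58, and 2.80 CPM in SK-LMS-1 and 8.14 and 8.41 CPM in SK-UT-1B, where it was higher in both libraries without passing the test (log2FC -0.76, adjusted p = 0.293). IFIT5 lay in the same order, with a log2FC of -0.43 and an adjusted p of 0.128.

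The OAS enzymes make the second messenger that switches on the nuclease RNase L. OAS1 and OAS2 were higher in SK-LMS-1, whereas OAS3, which lies between them in the cluster at chr12:112905856-113011723, was not. OAS1 had 1.86, 3.40, 3.33, and 2.98 CPM in SK-LMS-1 and 0 and 0.212 CPM in SK-UT-1B (log2FC 4.66, adjusted p = 0.00813), and did not pass without SK-UT-1B library 4-1 (adjusted p = 0.0601). OAS2 had 10.3, 10.4, 9.86, and 5.68 CPM in SK-LMS-1 and 0 and 0.451 CPM in SK-UT-1B (log2FC 5.23, adjusted p = 0.012). The size of both differences rested on SK-UT-1B library 4-2, without which the fitted log2FC was 9.52 for OAS1 and 11.15 for OAS2 against a lone library at 0. OAS3 had 17.8, 25.1, 9.66, and 19.5 CPM in SK-LMS-1 and 40.9 and 24.5 CPM in SK-UT-1B. The OAS3 libraries overlapped, and its log2FC of -0.89 fell short of 1 with an adjusted p of 0.024. OASL, an OAS-like protein without the enzyme activity, had 0.745 to 3.55 CPM in SK-LMS-1 and 0 counts in both SK-UT-1B DMSO libraries, a difference of at least 22.9-fold (adjusted p = 0.00703) that did not pass without SK-UT-1B library 4-2 (adjusted p = 0.0527). EIF2AK2 encodes PKR, the kinase that halts translation on sensing double-stranded RNA, and was high in both lines, with 179 to 223 CPM in SK-LMS-1 and 153 and 159 CPM in SK-UT-1B. Its log2FC was only 0.38, although the libraries did not overlap (adjusted p = 0.0328).

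**Figure D3:**
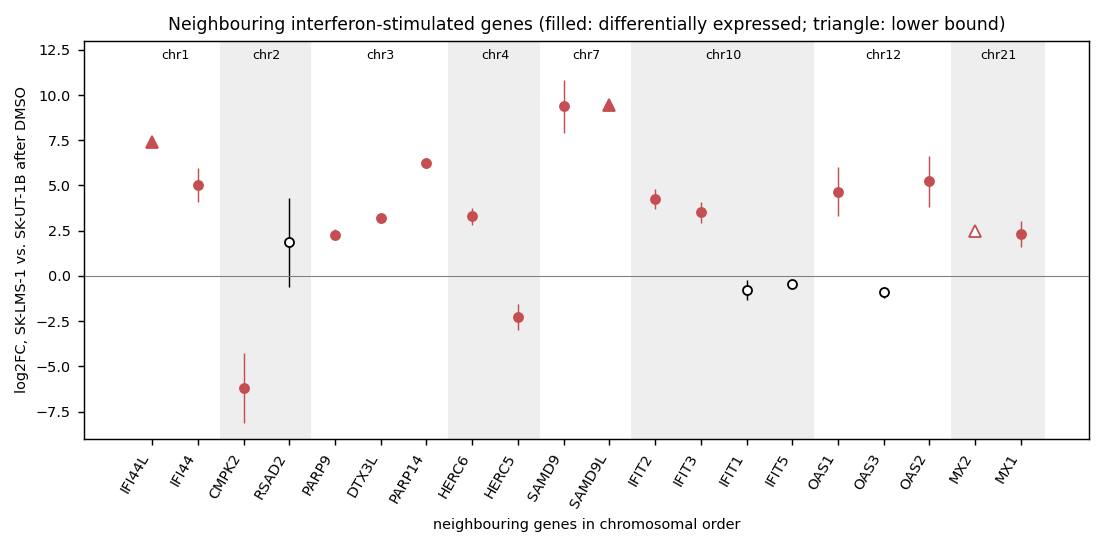
Log2FC of SK-LMS-1 against SK-UT-1B after DMSO for 8 groups of neighbouring genes in chromosomal order, with standard errors and with filled points where a gene was differentially expressed. Triangles are lower bounds for genes at or under 3 counts in SK-UT-1B, and neighbours lie on opposite sides of 0 on chromosomes 2, 4, 10, and 12.

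Other neighbouring paralogs lay on the same side, and the grouping by neighbourhood was chosen after the values were seen. SAMD9 and SAMD9L, neighbours at chr7:93099513-93148385 whose products restrain growth and poxvirus replication, were both high in SK-LMS-1. SAMD9 had 88.8, 86.7, 80.0, and 78.8 CPM in SK-LMS-1, and 0.277 and 0 CPM in SK-UT-1B (log2FC 9.37 ± 1.46, adjusted p = 0.00203), and the fitted log2FC was 14.40 without SK-UT-1B library 4-1, which held its only reads among the DMSO libraries of this line. SAMD9L had 67.1, 68.0, 46.2, and 73.3 CPM in SK-LMS-1 and 0 counts in each SK-UT-1B library, whatever the exposure, a difference of at least 694-fold (adjusted p = 1.06e-12). On chromosome 1, IFI44L had 14.4, 19.5, 12.2, and 15.8 CPM in SK-LMS-1 and 0 counts in every SK-UT-1B library, which made it at least 169-fold higher (adjusted p = 9.49e-10). IFI44, next to it, had 14.6, 8.69, 10.5, and 5.68 CPM in SK-LMS-1 and 0 and 0.557 CPM in SK-UT-1B (log2FC 5.04, adjusted p = 5.87e-04), and its fitted log2FC was 11.27 without SK-UT-1B library 4-2. The dynamin-like GTPases MX1 and MX2 lie together on chromosome 21, and MX1, at 9.48, 9.49, 5.84, and 6.50 CPM against 1.70 and 1.33 CPM, was higher in SK-LMS-1 (log2FC 2.34, adjusted p = 0.0126). MX1 did not pass without SK-UT-1B library 4-1 (adjusted p = 0.0754) or 4-2 (adjusted p = 0.106). MX2 was at 0 counts in SK-UT-1B and in 2 of the 4 SK-LMS-1 DMSO libraries, and did not pass (adjusted p = 0.105).

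Several genes of antiviral defense and cell death were at or near the limit of detection in SK-UT-1B. TRIM22, a ubiquitin ligase that restricts viruses, had 15.9, 9.02, 15.7, and 15.5 CPM in SK-LMS-1 and 0 counts in both SK-UT-1B DMSO libraries, a difference of at least 153-fold (adjusted p = 1.01e-08). XAF1, a proapoptotic antagonist of the inhibitor XIAP, had 13.5, 14.8, 6.41, and 11.8 CPM in SK-LMS-1 and 0 counts in SK-UT-1B, at least 127-fold higher (adjusted p = 3.94e-08). Of the exon length of XAF1, 38.3% overlaps PRAL on the other strand, and the strand setting of the counts is not given in the sources used here. The cytosolic RNA sensor IFIH1 (MDA5) had 19.1, 14.6, 14.4, and 16.1 CPM in SK-LMS-1 against 0.242 and 0.212 CPM, a log2FC of 6.12 with an adjusted p of 5.03e-05.

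CMPK2, a mitochondrial nucleotide kinase, went the other way. It had 4.15 and 4.77 CPM in SK-UT-1B after DMSO and 1.89, 0, 0, and 0 CPM in SK-LMS-1, where only library 2-1 held reads. Its log2FC was -6.20 with an adjusted p of 0.014, and it did not pass with set 2 as the only SK-LMS-1 control (log2FC -2.23, adjusted p = 0.418) or without SK-UT-1B library 4-2 (adjusted p = 0.0581). Without library 2-1 its fitted log2FC was -10.16. RSAD2, its neighbour on the other strand, encodes the antiviral enzyme viperin and was near the limit of detection in both lines, with 0 to 2.15 CPM (adjusted p = 0.596). BST2, or tetherin, which holds virions on the cell surface, had 0 to 2.46 CPM in SK-LMS-1 and 1.28 and 2.04 CPM in SK-UT-1B (adjusted p = 0.506). IFI27 was at 0 counts in both libraries of set 2 and at 1.46 and 1.37 CPM in set 4, and IFI35 overlapped between the lines (adjusted p = 0.1 and 0.183).

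Of the transcription factors of the response, IRF1 and IRF7 were higher in SK-LMS-1, and STAT2 and IRF9 did not pass. IRF1 had 33.2, 41.5, 45.3, and 42.1 CPM in SK-LMS-1 against 7.86 and 6.55 CPM (log2FC 2.49, adjusted p = 1.51e-06), and 22.9% of its exon length overlaps genes on the other strand. IRF7, which amplifies type I interferon production, had 13.7, 9.53, 11.2, and 14.7 CPM in SK-LMS-1 against 2.67 and 2.31 CPM (log2FC 2.30, adjusted p = 0.00149). STAT2 was higher in every SK-LMS-1 library, at 54.2 to 62.1 CPM against 30.6 and 32.4 CPM, but its log2FC of 0.86 was below 1 (adjusted p = 0.00352). IRF9 had reads in 1 of 4 SK-LMS-1 and 1 of 2 SK-UT-1B libraries after DMSO (adjusted p = 0.359), and 23.9% of its exon length is shared with another gene on its strand, so its counts are uncertain.

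The neighbours PARP9, DTX3L, and PARP14, at chr3:122527924-122730840 on hg38, were all higher in SK-LMS-1. PARP9 and the ubiquitin ligase DTX3L form a complex that acts at DNA damage, and PARP14 transfers single ADP-ribose units to proteins. PARP9 had 36.6, 42.2, 40.8, and 39.3 CPM in SK-LMS-1 and 9.07 and 7.24 CPM in SK-UT-1B (log2FC 2.28 ± 0.29, adjusted p = 2.24e-06). DTX3L had 90.9, 87.2, 90.1, and 83.9 CPM against 12.6 and 6.79 CPM (log2FC 3.19 ± 0.27, adjusted p = 8.02e-09). PARP14 showed the widest gap of the group, with 137, 125, 138, and 129 CPM in SK-LMS-1 and 1.21 and 2.23 CPM in SK-UT-1B. Its log2FC was 6.24 ± 0.26, or 75.5-fold, with an adjusted p of 1.41e-13.

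After the combination, 17 of the 36 genes were differentially expressed between the lines, 16 higher and 1 lower in SK-LMS-1, against 25.4% of all tested genes, 15.6% higher and 9.88% lower. Of the 16, 5 (IFI44, IFI44L, XAF1, SAMD9L, and TRIM22) were at or under 3 counts in both SK-UT-1B combination libraries, and without the 7 genes of the 36 at this level, a count also added after the data were seen, 12 of 29 were differentially expressed, 11 higher and 1 lower, with a median log2FC of 1.63. The doses and the first library number (4 in SK-LMS-1, 3 in SK-UT-1B) also differed between the lines. Line, dose, and library number therefore cannot be told apart in this comparison. The 16 that were higher had all been higher after DMSO, and the median log2FC of the 36 was 2.00, against 0.02 for all tested genes. OAS3 alone passed after the combination and not after DMSO, with 14.9 and 14.6 CPM in SK-LMS-1 and 26.8 and 36.1 CPM in SK-UT-1B (log2FC -1.09, adjusted p = 0.026). The 6 genes that passed only after DMSO were MX1, OAS1, OASL, IRF7, HERC5, and CMPK2. Passing after 1 exposure and not the other does not show that the line difference changed. The contrast that tests this change, with set 4 as the SK-LMS-1 control, did not pass for these 6, with adjusted p of 0.504 for CMPK2, 0.505 for OASL, 0.6 for IRF7, 0.698 for OAS1, and 1 for MX1 and HERC5.

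In SK-UT-1B, 1 of the 36 genes was differentially expressed after the combination. PARP14 was upregulated, and 0.559% of all tested genes were differentially expressed in this comparison, 0.393% upward and 0.166% downward. PARP14 had 1.21 and 2.23 CPM after DMSO and 8.12 and 9.65 CPM after the combination, so the groups did not overlap. These were 35 and 84 counts against 297 and 272 counts, or by the estimate of reads per molecule 1.53 and 4.79 against 18.6 and 14.4 molecules. The log2FC was 2.34 ± 0.24 with an adjusted p of 3.54e-05. It was 1.95 to 2.87 with each library left out in turn, and past the threshold each time. In a model with only the 4 SK-UT-1B libraries the log2FC was 2.36 but the adjusted p was 0.592, and 0 genes of any kind passed. The count of 1 became 4 under DESeq2, 3 without library 4-1 or 3-3, and 2 without library 4-2, and PARP14 was among the called genes in each of these. Even after the combination PARP14 stayed below its level in SK-LMS-1 (log2FC 3.91 ± 0.23 between the lines, adjusted p = 4.65e-11).

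**Figure D4:**
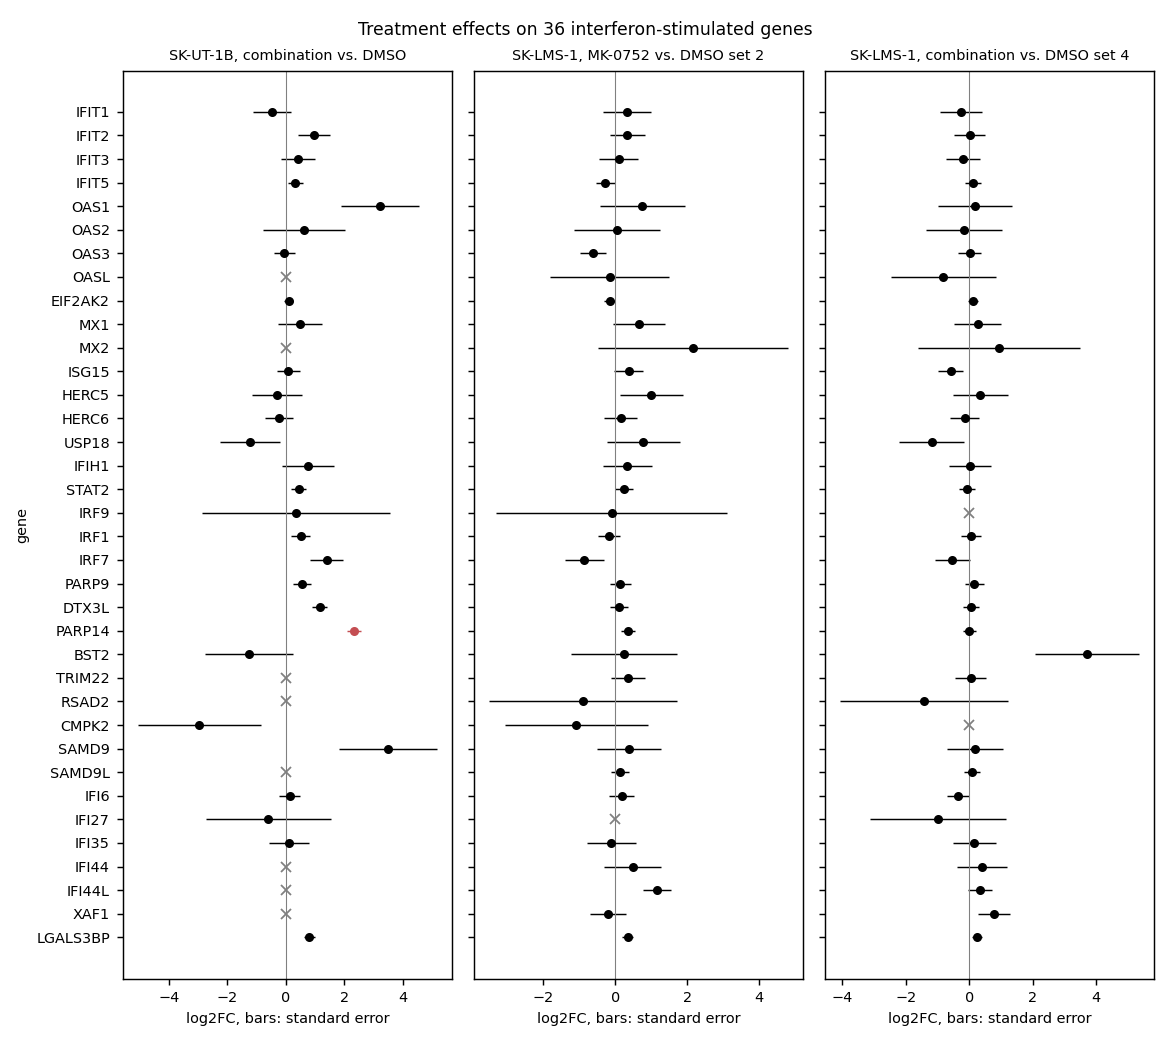
Log2FC with standard error of each of the 36 genes in the 3 treatment comparisons, with PARP14 in SK-UT-1B in red as the only differentially expressed gene. Grey crosses at 0 stand for genes at or under 3 counts in all libraries of at least 1 arm, for which no fitted value is drawn.

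The next genes in SK-UT-1B moved less or fell short of a threshold. DTX3L had 12.6 and 6.79 CPM after DMSO and 26.8 and 16.3 CPM after the combination, without overlap, and a log2FC of 1.16 ± 0.27 with an adjusted p of 0.0503. It passed under DESeq2 (adjusted p = 0.0136), without the filter on low counts (adjusted p = 7.03e-05), and with the replicate block (log2FC 1.22, adjusted p = 0.00611). The log2FC of DTX3L was 1.63 without library 4-1 and 1.47 without 3-3, but 0.73 without 3-1 and 0.77 without 4-2. Over all alternatives its adjusted p reached 0.621. PARP9 had 9.07 and 7.24 CPM after DMSO and 16.0 and 7.63 CPM after the combination, where library 3-1 was high and 3-3 was near the control (log2FC 0.54, adjusted p = 0.596). LGALS3BP had 3.57 and 3.50 CPM after DMSO and 5.66 and 6.74 CPM after the combination, and its adjusted p was 0.0417 with a log2FC of 0.81, below 1.

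**Figure D5:**
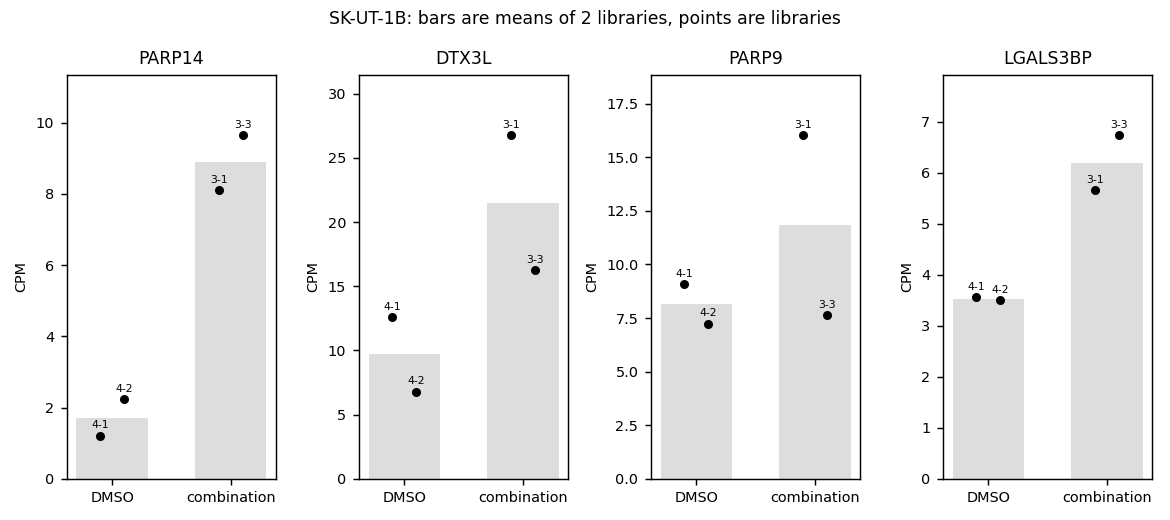
CPM of PARP14, DTX3L, PARP9, and LGALS3BP in the 4 SK-UT-1B libraries, with bars for means of 2 libraries and labelled points for libraries. Both combination libraries lie above both DMSO libraries for PARP14, DTX3L, and LGALS3BP, whereas library 3-3 of PARP9, at 7.63 CPM, lies between the DMSO libraries.

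By unadjusted p under 0.05, 6 of the 36 genes were higher and 1 was lower in SK-UT-1B after the combination, against 5.41% and 5.08% of all tested genes. Besides PARP14, DTX3L, and LGALS3BP, the genes that were higher were IRF7, OAS1, and OASL, all low in this line. IRF7 had 2.67 and 2.31 CPM after DMSO and 9.34 and 3.69 CPM after the combination (log2FC 1.39, adjusted p = 0.34), and its log2FC was 0.54 without library 3-1. OAS1 had 0 and 8 counts after DMSO and 37 and 31 counts after the combination (log2FC 3.22, adjusted p = 0.361), and its fitted log2FC was 8.07 without library 4-2. OASL had 0 counts in both DMSO libraries and 4 and 29 counts after the combination (adjusted p = 0.227, but 0.0367 under DESeq2). IFI44 was the gene that was lower, with 0 and 21 counts after DMSO and 0 counts in both combination libraries (adjusted p = 0.198), and its difference rested on library 4-2. It passed under DESeq2 (adjusted p = 0.0321), without the filter on low counts (adjusted p = 0.00111), and without library 4-1 (adjusted p = 0.0100). The median log2FC of the 36 genes was 0.22, against 0 for all tested genes, and the libraries of the arms did not overlap for 6 genes that were higher and 2 that were lower, against 16.7% and 15.4% of all tested genes. SAMD9L, IFI44L, XAF1, TRIM22, and MX2 stayed at or under 3 counts in all 4 SK-UT-1B libraries.

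In SK-LMS-1, 0 of the 36 genes were differentially expressed after MK-0752 alone by edgeR and by DESeq2, with 0.251% of all tested genes differentially expressed by edgeR. By unadjusted p under 0.05, 2 genes were higher and 0 were lower, against 2.48% and 3.94% of all tested genes. IFI44L had 14.4 and 19.5 CPM after DMSO and 42.2 and 33.4 CPM after MK-0752, above both controls and above all 4 DMSO libraries of the line. Its log2FC was 1.16 ± 0.38 (adjusted p = 0.4). LGALS3BP had 225 and 247 CPM after DMSO and 267 and 333 CPM after MK-0752 (log2FC 0.35, or 0.18 without MK-0752 library 2-3, adjusted p = 0.756). PARP14 had 137 and 125 CPM after DMSO and 184 and 151 CPM after MK-0752, without overlap and without passing (log2FC 0.36, adjusted p = 0.806). The arms did not overlap for 11 genes that were higher and 5 that were lower, against 16.9% and 17.5% of all tested genes, and the median log2FC of the 36 genes was 0.17 against 0.

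After the combination, too, 0 of the 36 genes were differentially expressed in SK-LMS-1 by edgeR and by DESeq2, where 0.0237% of all tested genes were differentially expressed by edgeR. By unadjusted p under 0.05, 2 were higher and 0 were lower, against 3.17% and 1.16% of all tested genes. BST2 had 0 and 20 counts after DMSO set 4 and 74 and 120 counts after the combination (log2FC 3.73, or 9.82 without DMSO library 4-2, adjusted p = 0.907), but 86 and 52 counts in set 2. CMPK2 had 0 counts in both libraries of set 4 and 18 and 9 counts after the combination (adjusted p = 0.907), with 66 and 0 counts in set 2. CMPK2 therefore stayed within the range of the 4 DMSO libraries, whereas BST2 in combination library 4-2, at 4.92 CPM, lay above the highest of them at 2.46 CPM. PARP14 had 138 and 129 CPM after DMSO and 137 and 130 CPM after the combination, with overlap. The median log2FC of the 36 genes was 0.06 against 0.03, and the arms did not overlap for 7 genes that were higher and 5 that were lower, against 21% and 11.4% of all tested genes.

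The effect of the combination was tested for a difference between the lines, which also differed in the doses they received, and these cannot be told apart. PARP14 was the only gene of the 36 that passed, with a difference in log2FC of 2.34 ± 0.32 and an adjusted p of 9.14e-04, while 0.232% of all tested genes passed, 0.147% with the higher effect in SK-UT-1B. Its log2FC was 2.34 in SK-UT-1B and 0.00 in SK-LMS-1. DTX3L showed a difference of 1.10 ± 0.37 (adjusted p = 0.458), with a log2FC of 1.16 in SK-UT-1B and 0.05 in SK-LMS-1. By unadjusted p under 0.05, 5 genes had the higher and 3 the lower log2FC in SK-UT-1B, against 3.22% and 4.45% of all tested genes. The count of 1 that passed the adjusted threshold became 3 without SK-UT-1B library 3-3 and 2 without SK-UT-1B library 4-1. Within SK-LMS-1, the effect of MK-0752 given alone differed from that of the combination for 0 of the 36 genes by edgeR and by DESeq2, with 0.0379% of all tested genes passing by edgeR. The doses of MK-0752 differed between these arms, and by unadjusted p under 0.05 only CMPK2 differed, being lower, against 1.56% higher and 3.62% lower of all tested genes.

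The DMSO sets of SK-LMS-1, which held no drug, showed how far these genes varied without treatment. By edgeR and by DESeq2, 0 of the 36 genes differed between the sets, as did 0% of all tested genes by edgeR, and 1 gene was higher and 1 lower by unadjusted p under 0.05, against 2.14% and 3.53% of all tested genes. The arms of the sets did not overlap for 4 genes that were higher and 8 that were lower in set 4, against 12% and 17.5% of all tested genes. ISG15 was among the higher ones, at 8.88 and 14.6 CPM in set 2 and 23.6 and 16.0 CPM in set 4 (log2FC 0.75, adjusted p = 0.794). BST2 was among the lower ones (log2FC -3.01, adjusted p = 0.794). The 2 genes at an unadjusted p under 0.05 were IFI27, at least 14.6-fold higher in set 4, and CMPK2, at least 9.48-fold lower (adjusted p = 0.794 for each). The reads of CMPK2 were in library 2-1 alone.

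The other genes of the pathway were read from fixed lists. Of 14 interferon genes, 13 were not tested because their counts were too low, and only IFNE, an interferon of the reproductive tract, was tested, without passing in any comparison. Between the lines after DMSO, 3 of 10 receptor and JAK-STAT genes were differentially expressed (2 higher and 1 lower in SK-LMS-1), close to the 31.1% of all tested genes. The same comparison gave 3 of 11 tested sensors of nucleic acids, all higher and also near that share, and 7 of 10 tested negative regulators, 4 higher and 3 lower. Without the genes at or under 3 counts in a line, likewise a count added after the data were seen, these were 2 of 9 sensors and 6 of 9 negative regulators, 3 higher and 3 lower. Of 42 further interferon-stimulated genes tested, 27 had the higher and 3 the lower level in SK-LMS-1, with a median log2FC of 2.49, or 2.01 with undetected genes set at their bounds. Of these 42, 13 were at or under 3 counts in a line after DMSO and could be tested only through other libraries, and without them, likewise added after the data were seen, 20 of 29 were differentially expressed, 18 higher and 2 lower, with a median log2FC of 1.23. In each of the treatment comparisons 0 genes of these 5 lists were differentially expressed by edgeR. By unadjusted p under 0.05 the 42 further genes gave 7 higher and 2 lower after the combination in SK-UT-1B, 3 higher and 1 lower after MK-0752 in SK-LMS-1, and 0 after the combination in SK-LMS-1. Among all tested genes these shares were 5.41% higher and 5.08% lower, 2.48% and 3.94%, and 3.17% and 1.16%, in the same order.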

How the data were processed

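RNA was sequenced from 12 libraries of 2 lines. Reads were trimmed by the authors (Trim Galore 0.3.7) and aligned with STAR 2.7.9a to hg38. The authors removed ribosomal reads with SortMeRNA and deposited raw counts per gene without normalization. The annotation, the strand setting, and any removal of duplicate reads are not given in the sources used here. From the deposited counts, edgeR 4.0.16 in R 4.3.3 was fitted to all genes (TMM, filterByExpr, robust quasi-likelihood) with 6 groups of 2 libraries. The SK-LMS-1 DMSO libraries were split by their first number, and each treatment was compared with the set that shares its number. Benjamini-Hochberg adjustment ran over 21114 genes. The 36 genes and all lists were chosen with earlier results of these data known. Full values are given for genes called in a treatment or interaction comparison or at an unadjusted p under 0.05 there, the 8 largest differences between lines, and the leading gene per length, and other members appear by role. The test was run first on simulated data, drawn as independent counts with the spread fitted to these data. Changes were simulated only in genes well above the limit of detection, so that run does not bear on genes near it. A bound sets an undetected group at 3 counts per library. Coordinates and lengths come from GENCODE on hg38, and promoter windows from RefSeq. The alternatives were DESeq2 1.42.0, its size factors in edgeR, a filter of only 1 count, a minimum mean of 50 counts, only the libraries of a comparison, other DMSO controls, a replicate block, and each library left out. Intervals were not computed because reads may not be independent molecules.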

Additional observations from a re-analysis of the deposited data

Results flagged for a closer look

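The effect of the combination on PARP14 differed between the lines, by a test of the difference itself. The log2FC was 2.34 higher in SK-UT-1B than in SK-LMS-1 (edgeR, adjusted p = 9.14e-04). PARP14 rose in both SK-UT-1B combination libraries, from 1.21 and 2.23 CPM to 8.12 and 9.65 CPM, and lay at 137 and 130 CPM in SK-LMS-1 after the combination against 138 and 129 CPM after DMSO. The rise in SK-UT-1B, tested by edgeR with only the libraries of that line, did not pass (adjusted p = 0.592). In SK-UT-1B treatment and first library number cannot be told apart. The doses also differed between the lines.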

How the results depend on the processing

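The count of the 36 genes called in SK-UT-1B after the combination moved from 1 to 4 under DESeq2 (PARP14, DTX3L, OASL, and IFI44), 3 without the filter on low counts, 2 with the replicate block (PARP14 and DTX3L), and 0 with only the libraries of the comparison. With a library left out it lay between 1 and 3, being 3 without DMSO library 4-1 or combination library 3-3 and 2 without DMSO library 4-2. SAMD9 was then among the genes called without 3-3, and IFIT3 without 4-2. The count for the difference in effect between the lines moved from 1 to 3 without the filter, and lay between 1 and 3 with a library left out (3 without 3-3 and 2 without SK-UT-1B 4-1). The counts between lines were 19 to 24 after DMSO and 15 to 18 after the combination with a library left out. Counts of called genes were within 1.5 times the reported value in 88 of 98 recalculations. This share took a count of 0 that stayed at 0 as unchanged, as for both treatments of SK-LMS-1. The 10 that moved were those given above for SK-UT-1B and for the difference in effect between the lines. No log2FC of a named gene changed sign in 445 recalculations, but IFI44 in SK-UT-1B went to 0.00 without DMSO library 4-2. The call changed in 18 of the 445, of which 9 gained it and 9 lost it, and 9 of the 18 came from leaving out a library. The cause of these shifts was not tested. In 3 pairs of groups that share both numbers, libraries with the same number did not deviate together (correlations of -0.011, -0.011, and -0.022). Only the first pair, DMSO set 4 and the combination in SK-LMS-1, lay within a line. The others set SK-UT-1B DMSO against an SK-LMS-1 group. SK-UT-1B DMSO and combination share only 1 number, as do DMSO set 2 and MK-0752 in SK-LMS-1, and were not checked, and the numbers were not taken as pairs. The block changed no other count by over 1.5 times. Precision is limited by 2 libraries a group (4 for the pooled SK-LMS-1 DMSO libraries). By the estimate of 11.0 to 27.7 reads per molecule, low counts would also rest on few molecules.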

Other observations

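JAK1, the kinase that the interferon receptors share, had the lowest adjusted p of the receptor and JAK-STAT genes between the lines, and was singled out after its values were seen. It had 402, 381, 345, and 389 CPM in SK-LMS-1 after DMSO, and 2.84 and 4.62 CPM in SK-UT-1B, where it had 82 and 174 counts. Its log2FC was 6.65 (edgeR, adjusted p = 5.63e-15). After the combination JAK1 remained at 3.09 and 3.83 CPM in SK-UT-1B and at 395 and 360 CPM in SK-LMS-1.

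Other interferon-stimulated genes outside the 36, also singled out after their values were seen, were at 0 counts in all 4 SK-UT-1B libraries. IFI16, a sensor of DNA, had 154, 168, 134, and 154 CPM in SK-LMS-1 after DMSO, at least 1663-fold higher than in SK-UT-1B. SOCS3, an inhibitor of JAK kinases, had 33.1 to 38.0 CPM and was at least 388-fold higher. APOL1, a trypanosome lytic factor of serum, had 14.9 to 32.1 CPM and was at least 234-fold higher. ADAR, which edits double-stranded RNA, went the other way, at 198 to 257 CPM in SK-LMS-1 and 512 and 488 CPM in SK-UT-1B (log2FC -1.10, adjusted p = 4.88e-07).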
